A study of Mus musculus with 4 samples.

Results

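Messenger RNA levels of 9 chemokine genes were examined in cultured mouse fibroblasts that carried different Myc proteins. The genes were chosen by symbol from the unscaled expression table as chemokines that fibroblasts are known to make: Ccl2, Ccl7, Ccl5, Cxcl1, Cxcl5, Cxcl10, Cxcl12, Cxcl16 and Cx3cl1. Each has 1 value per library, and all 9 are among the 11641 of 23366 genes that average 1 FPKM or more across the libraries and are called tested below. The unit, FPKM, corrects the fragments of a gene for its transcript length and for the size of the library.

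All 4 cultures were immortalized mouse embryonic fibroblasts, a line of connective tissue cells derived from mouse embryos and grown in DMEM with fetal bovine serum. One culture held an empty vector and the others held Myc, MycN or a protein named Minimal Myc, which the labels do not define further. All 4, the vector culture included, received Cre recombinase from an adenovirus and a recovery given as 48 without a unit. The series design calls the vector cells deleted for Myc, and each group is 1 culture with 1 library, so no difference below has a replicate, an error or a test.

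Chemokines are small secreted or membrane-bound proteins that guide migrating leukocytes by binding G protein-coupled receptors. They are named by the spacing of conserved cysteines near the amino terminus as CC, CXC or CX3C proteins. Fibroblasts are known mainly as a source of the ligands. Inflammatory members are induced through NF-kB and interferon signalling after infection or tissue damage, whereas Cxcl12 is made constitutively by stromal cells.

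The libraries differed in ways that bear on every level. Whole-gene Myc was 22.2 FPKM with vector, 141 with Myc, 4.36 with MycN and 32.6 with Minimal Myc, and Mycn was at most 0.390 FPKM in vector and Myc against 178 in MycN and 95.9 in Minimal Myc. These values do not separate an added coding sequence from the cells' own transcript, and the vector library was above the MycN library in Myc. Over all tested genes the median difference of log2(FPKM + 1) from vector was 0.47 with Myc, 0.42 with MycN and 0.47 with Minimal Myc. The chemokine differences are therefore given as they stand and also relative to this shift. In the authors' scaled table each library is multiplied by 1 factor, which is 1 for vector, 1.28 for Minimal Myc, 1.30 for MycN and 2.04 for Myc. Low FPKM values came in steps of single fragments. Their commonest ratio between libraries, read on genes below 0.05 FPKM, put the sequencing depth at 0.721 of the MycN library for vector, 0.730 for Myc and 0.950 for Minimal Myc, while the number of fragments behind each value is unknown. Of 10 fibroblast markers 9 were tested, with a summed level of 1679 to 2292 FPKM. Of 10 leukocyte markers 3 were tested (Cd14, Csf1r and Cd68) and 6 were below 1 FPKM in all libraries, with a summed level of 12.5 FPKM with vector, 15.4 with Myc, 15.3 with MycN and 16.1 with Minimal Myc. The pan-leukocyte gene Ptprc was at most 0.0215 FPKM and the macrophage gene Emr1 at most 0.00487. Endothelial markers summed to at most 1.33 FPKM and epithelial markers to at most 0.746. In such bulk samples, fewer cells that express a gene and less of its RNA per cell cannot be told apart.

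Most of the chemokines stood highest in the Minimal Myc library. Of the 9 genes 7 had their highest FPKM there, 1 in MycN and 1 in vector, and none in Myc. Cxcl16, counted among the 7, averages 1 FPKM or more only through its Minimal Myc level. Its place in this count was thus bound to that filter. Over all tested genes, 35.8% were highest in Minimal Myc, 29.0% in MycN, 29.7% in Myc and 5.53% in vector. The Myc library had the lowest level of 4 chemokines, vector and MycN of 2 each and Minimal Myc of 1. Over all tested genes, 68.1% were lowest in vector and 7.80% in Myc, both in unscaled FPKM. In scaled FPKM 6 chemokines were lowest in vector and 1 in Myc. The matching shares of all genes were not computed there, and the factors raise every library but vector. The summed FPKM of the 9 genes was 1104 with vector, 1338 with Myc, 1531 with MycN and 3744 with Minimal Myc. In the scaled table the sums were 1104, 2730, 1991 and 4809, so the order of Myc and MycN turned while Minimal Myc stayed highest. The difference between a gene's highest and lowest library had a median of 2.31 (log2) over the chemokines and of 0.79 over all tested genes.

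**Figure D1:**
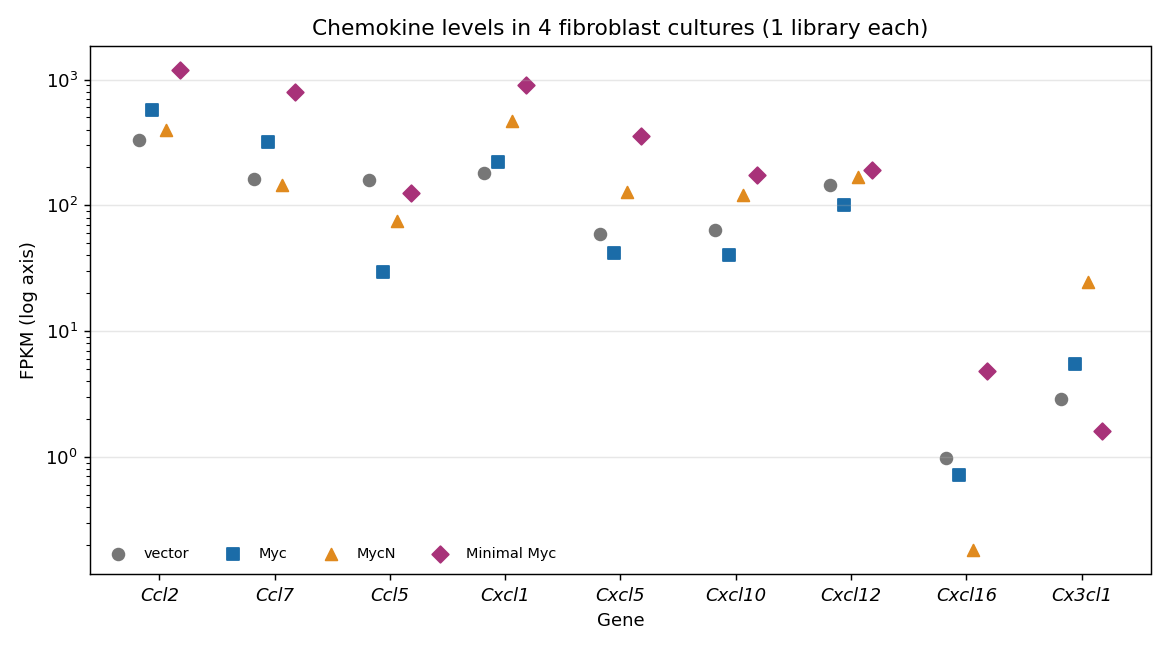
FPKM of the 9 chemokine genes on a log axis, 1 point per library, by culture. Minimal Myc is the highest point for 7 genes, whereas Ccl5 is highest in vector at 159 FPKM and Cx3cl1 in MycN at 24.5 FPKM.

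Ccl2 and Ccl7 are CC chemokines that attract monocytes, mainly through the receptor Ccr2. Ccl2 was 328 FPKM with vector, 576 with Myc, 398 with MycN and 1193 with Minimal Myc. The Minimal Myc library was 3.64 times vector and 2.07 times the next highest library, Myc. Myc was 1.75 times vector and MycN 1.21 times vector. Ccl2 stood at percentile 98.7 to 99.5 of the tested genes in each library, so it was among the most abundant transcripts of all 4 cultures.

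Ccl7 was 163 FPKM with vector, 321 with Myc, 146 with MycN and 791 with Minimal Myc. It shared with Ccl2 the high Minimal Myc value and the second place of Myc, but in MycN it lay slightly below vector (ratio 0.897). Relative to the shift of all genes, the Minimal Myc difference from vector was 1.39 for Ccl2 and 1.80 for Ccl7 (log2). In Myc these relative differences were 0.34 and 0.50, below 2-fold. In scaled FPKM the ratios of Myc to vector were 3.58 and 4.01, against 1.75 and 1.97 in unscaled FPKM, so whether the Myc culture counts as 2-fold above vector depends on the scaling. The ratio of Ccl2 to Ccl7 within a library, which no scaling can alter, was 2.01 with vector, 1.80 with Myc, 2.72 with MycN and 1.51 with Minimal Myc.

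Ccl5 is a CC chemokine that attracts T cells and monocytes, and in many cells it is induced by viral infection. Its order was unlike that of every other member: it was 159 FPKM with vector, 29.6 with Myc, 74.7 with MycN and 125 with Minimal Myc. The Myc library stood at 0.187 of the vector level and the MycN library at 0.470. Vector was above Minimal Myc by 1.27 times in FPKM, and in scaled FPKM the 2 were nearly level (159 and 160). Myc was the lowest library in both tables. Ccl5 made up 14.4% of the summed FPKM of the 9 genes with vector, 2.22% with Myc, 4.88% with MycN and 3.33% with Minimal Myc. Within a library, the ratio of Ccl2 to Ccl5 was 2.07 with vector, 19.4 with Myc, 5.33 with MycN and 9.56 with Minimal Myc. Relative to Ccl2, and whatever the scaling, Ccl5 was thus highest in the vector culture.

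Cxcl1 and Cxcl5 are CXC chemokines that attract neutrophils through Cxcr2. Cxcl1 was 182 FPKM with vector, 222 with Myc, 472 with MycN and 906 with Minimal Myc. Vector and Myc were near each other, MycN was 2.59 times vector, and Minimal Myc was 4.98 times vector. In the MycN library Cxcl1 was the most abundant of the 9 chemokines, ahead of Ccl2, whereas Ccl2 led in the other libraries.

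Cxcl5 was 59.4 FPKM with vector, 41.4 with Myc, 128 with MycN and 358 with Minimal Myc. Minimal Myc was 8.64 times Myc, the widest range of those members that averaged above 10 FPKM. Relative to the shift of all genes, the Minimal Myc difference from vector was 1.84 for Cxcl1 and 2.10 for Cxcl5 (log2), and the MycN difference was 0.95 and 0.67. The 2-fold excess of Cxcl1 and Cxcl5 in MycN over vector therefore held in unscaled and scaled FPKM and not after subtracting the shift. In Myc the sign for Cxcl5 also depended on the table, at -0.51 unscaled and 0.50 scaled (log2).

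Cxcl10 is a CXC chemokine for activated T cells and natural killer cells, which bind it through Cxcr3, and it is a widely used readout of interferon signalling. It was 63.9 FPKM with vector, 40.4 with Myc, 120 with MycN and 173 with Minimal Myc. The order of the libraries was the same as for Cxcl5, over a narrower range of 4.29 times. Minimal Myc was only 1.44 times MycN, and relative to the shift its difference from vector was 0.95 (log2), just under 2-fold. The ratio of Cxcl10 to Ccl5 within a library was 0.402 in vector and 1.36 to 1.61 in the other libraries. These chemokines, often induced together, therefore stood in different proportions in vector and in the cultures given a Myc protein.

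Cxcl12 binds Cxcr4 and the scavenger receptor Ackr3, and it retains blood stem cells and guides cell migration in development. It was 145 FPKM with vector, 101 with Myc, 167 with MycN and 191 with Minimal Myc. It varied least of the 9 genes, with 1.89 times between its highest and lowest library, and differed by 2-fold in none of the 6 comparisons in either table. Its order in unscaled FPKM was the same as that of Cxcl5 and Cxcl10. The ratio of Cxcl1 to Cxcl12 was 1.26 with vector, 2.20 with Myc, 2.83 with MycN and 4.74 with Minimal Myc. Cxcl1 thus stood higher against Cxcl12 in each culture given a Myc protein than in vector. Not every inflammatory member did so. Ccl5 was above Cxcl12 in vector (159 against 145 FPKM) and below it in the other libraries. In Myc, Cxcl10 was at 0.632 of its vector level and Cxcl12 at 0.700.

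Promoter sequences show what Cxcl1 and Cxcl10, inflammatory members, and Cxcl12, the constitutive one, carry ahead of their starts. The RefSeq promoter table, on build GRCm38.p6, holds 4 of the 9 genes (Cxcl1, Cxcl10, Cxcl12 and Cx3cl1), while Ccl2, Ccl5, Ccl7, Cxcl5 and Cxcl16 are not in it. The 250 bases before each start were searched on both strands for the NF-kB consensus, for GAAANNGAA (the core of the interferon-stimulated response element, where interferon-activated factors bind), for the Myc E-box CACGTG and for the TATA box TATAAA. The windows of Cxcl1 (chr5:90890995-90891244, plus strand), Cxcl10 (chr5:92348890-92349139, minus strand) and Cxcl12 (chr6:117168285-117168534, plus strand) are shown 5′ to 3′ on the gene's strand. Capitals mark matches to the NF-kB consensus or the response element core.
Cxcl1: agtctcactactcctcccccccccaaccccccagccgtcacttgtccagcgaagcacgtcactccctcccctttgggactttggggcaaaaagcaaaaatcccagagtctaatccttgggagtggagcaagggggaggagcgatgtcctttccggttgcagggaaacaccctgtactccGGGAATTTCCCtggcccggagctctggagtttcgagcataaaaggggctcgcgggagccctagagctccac
Cxcl10: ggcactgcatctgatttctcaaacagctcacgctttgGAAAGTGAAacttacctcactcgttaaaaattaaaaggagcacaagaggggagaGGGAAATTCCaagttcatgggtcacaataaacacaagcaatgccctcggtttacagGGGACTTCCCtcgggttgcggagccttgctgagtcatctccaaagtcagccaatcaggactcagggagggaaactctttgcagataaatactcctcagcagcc
Cxcl12: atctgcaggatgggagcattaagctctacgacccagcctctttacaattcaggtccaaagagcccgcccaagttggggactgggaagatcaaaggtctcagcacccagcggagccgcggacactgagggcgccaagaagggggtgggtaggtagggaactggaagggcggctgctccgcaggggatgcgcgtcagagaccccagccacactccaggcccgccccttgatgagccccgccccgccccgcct

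The Cxcl1 window held the NF-kB consensus on the plus strand at 71 to 62 bases before the start and, overlapping it, on the other strand at 70 to 61. The Cxcl10 window held the consensus at 159 to 150 and at 103 to 94 bases before the start, with the response element core at 213 to 205. The Cxcl12 window held none of the 4 motifs, and that of Cx3cl1 held only the letters of the TATA box, at 6 to 1 bases before the annotated start. The E-box was in none of these 4 windows. Of 32851 promoter windows of this length, some of them several for 1 gene, 3.90% held the NF-kB consensus, 7.13% the response element core, 6.02% the E-box and 12.4% the TATA box. Of the 10941 windows of tested genes the shares were 4.61%, 6.11%, 8.46% and 6.44%. Such matches describe the letters of these windows and not binding, and sites outside the windows were not searched.

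Cxcl16 and Cx3cl1 are the membrane-anchored chemokines, which act as adhesion molecules until proteases, chiefly Adam10 and Adam17, release their soluble forms. Their receptors are Cxcr6 and Cx3cr1. Cxcl16 was the least abundant of the 9 genes, at 0.977 FPKM with vector, 0.717 with Myc, 0.181 with MycN and 4.84 with Minimal Myc. Only Minimal Myc was above 1 FPKM, which alone brought the gene past the filter, at 4.96 times vector and 26.8 times MycN. Between vector and MycN the difference was -0.74 on the log2(FPKM + 1) scale, below 2-fold because of the added 1, and -1.94 with 0.1 added.

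Cx3cl1 had the opposite order, at 2.90 FPKM with vector, 5.47 with Myc, 24.5 with MycN and 1.60 with Minimal Myc. MycN was 8.44 times vector and 4.48 times Myc, and it was the only library in which this gene passed the median of tested genes (percentile 71.3, against 7.46 to 27.5 elsewhere). Minimal Myc, the highest library for most chemokines, was the lowest for Cx3cl1. It stood 0.0652 of the MycN level. These extremes held in the scaled table as well, where Cx3cl1 was 31.8 in MycN and 2.05 in Minimal Myc.

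**Figure D2:**
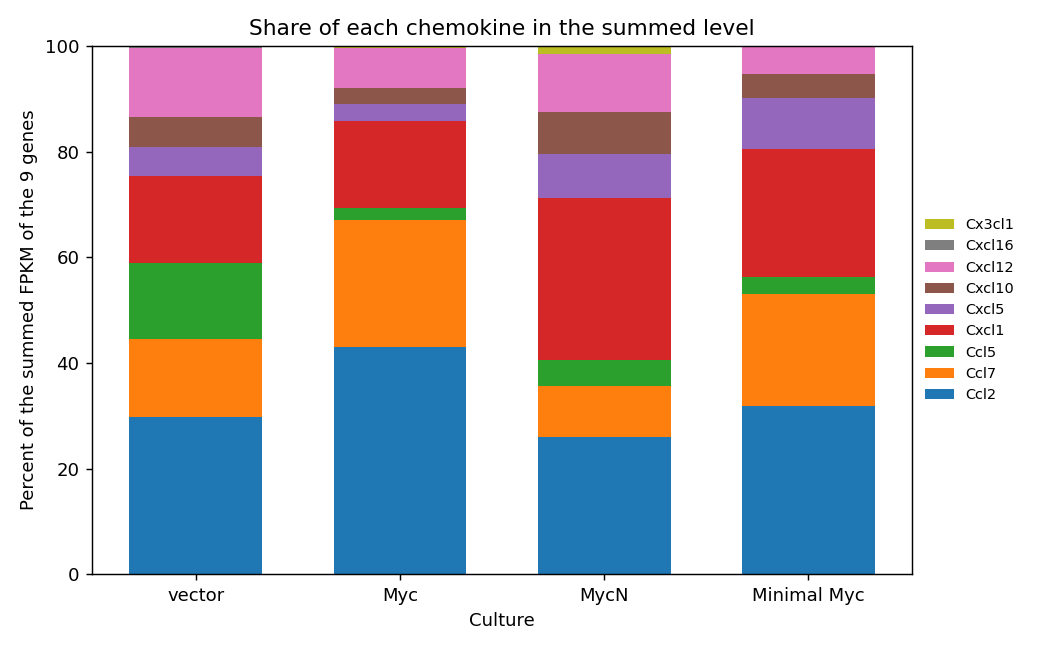
Share of each chemokine in the summed FPKM of the 9 genes, as stacked bars that reach 100 percent, for each culture (1 library each). Ccl5 takes 14.4% in vector and 2.22% in Myc, Ccl2 takes 43.1% in Myc, and Cxcl1 takes 30.8% in MycN.

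Each culture given a Myc protein was compared with vector, and a gene counted as higher or lower from 2-fold on, a difference of 1 in log2(FPKM + 1). In Myc, 0 of 9 chemokines were at least 2-fold higher, where 11.2% of all tested genes were, and 1 (Ccl5) was lower, where 1.56% were. In MycN, 3 were higher (Cxcl1, Cxcl5 and Cx3cl1) against 7.65% of all genes, and 1 was lower (Ccl5) against 1.86%. In Minimal Myc, 6 were higher (Ccl2, Ccl7, Cxcl1, Cxcl5, Cxcl10 and Cxcl16) against 13.6%, and 0 were lower against 1.68%. Cxcl16 was tested only through its Minimal Myc level, so its place among the 6 was bound to that filter. The median difference over the 9 chemokines was -0.20 with Myc, 0.28 with MycN and 1.56 with Minimal Myc (log2). The chemokine median was thus below the shift of all genes in Myc and MycN and above it in Minimal Myc. These comparisons share the vector library, so a value that was high or low in it by chance enters all of them. After subtracting the shift, Cx3cl1 alone was 2-fold above vector in MycN, where 1.86% of all genes were. In Minimal Myc 5 chemokines were, with Cxcl10 just short, where 3.72% of all genes were. In scaled FPKM, 4 were higher in Myc (Ccl2, Ccl7, Cxcl1 and Cx3cl1), where 78.5% of all genes were.

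**Figure D3:**
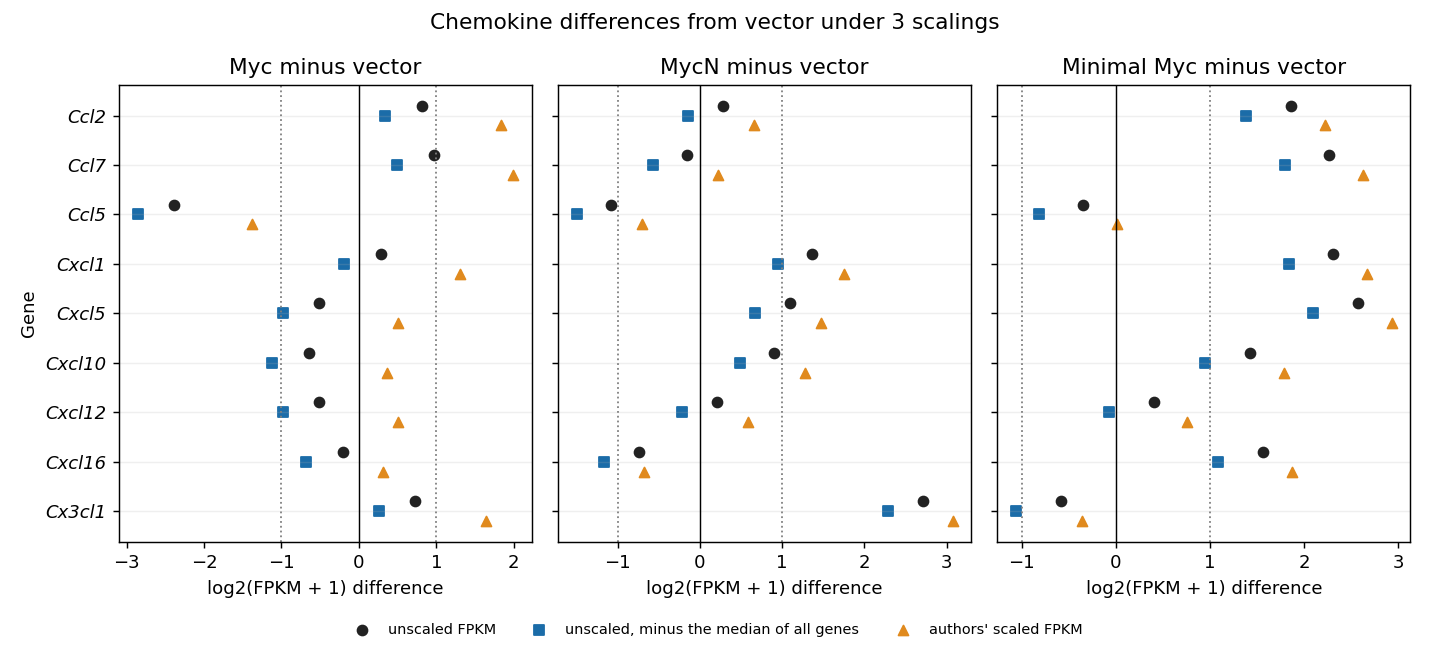
Difference of log2(FPKM + 1) from vector for each chemokine in Myc, MycN and Minimal Myc (1 library each), in unscaled FPKM, after subtracting the median difference of all tested genes, and in the authors' scaled FPKM; dotted lines mark 2-fold. Ccl5 is left of the 2-fold line in Myc under all 3 scalings, while Cx3cl1 in MycN and Ccl2, Ccl7, Cxcl1, Cxcl5 and Cxcl16 in Minimal Myc are right of it under all 3.

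The cultures with a Myc protein were also compared with each other, where the shift of all genes was at most 0.06 in size in unscaled FPKM. MycN was at least 2-fold above Myc for 5 chemokines (Ccl5, Cxcl1, Cxcl5, Cxcl10 and Cx3cl1), where 1.95% of all genes were, and below it for Ccl7, where 2.74% were. In scaled FPKM only Cx3cl1 of these 5 stayed 2-fold above, where 0.85% of all genes were, and Ccl2 joined Ccl7 below, where 20.2% were. Minimal Myc was at least 2-fold above Myc for 7 chemokines, all but Cxcl12 and Cx3cl1, where 4.48% of all genes were, and below it for Cx3cl1, where 2.16% were. In scaled FPKM, 5 of the 7 stayed, without Ccl2 and Ccl7, where 2.44% of all genes were above. Minimal Myc was at least 2-fold above MycN for Ccl2, Ccl7, Cxcl5 and Cxcl16, where 6.94% of all genes were, and below it for Cx3cl1, where 3.69% were. These last counts were the same in scaled FPKM. Cxcl16, counted above both Myc and MycN, was tested only through its Minimal Myc level, so its place in both counts was bound to that filter. The MycN and Myc cultures also differed from each other in the proportions of monocyte and neutrophil chemokines: Ccl2 over Cxcl1 was 2.59 in Myc, 0.844 in MycN, 1.80 in vector and 1.32 in Minimal Myc.

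Most of the remaining chemokine family was barely detected. Of 29 other ligands looked for, 28 were in the table, 19 were below 1 FPKM in all 4 libraries and 7 were tested. Ppbp, the platelet-derived member of the neutrophil chemokines, had the largest differences, at 31.8 FPKM with vector, 7.82 with Myc, 10.5 with MycN and 195 with Minimal Myc. Minimal Myc was again the highest library, and Myc the lowest in unscaled FPKM. The scaling factors, 2.04 for Myc and 1.30 for MycN, put MycN lowest instead. Cxcl3, another Cxcr2 ligand, was 0.403 FPKM with vector, 0.181 with Myc, 1.29 with MycN and 3.01 with Minimal Myc. The monocyte chemokine Ccl8 was 4.43, 2.90, 6.14 and 13.1 FPKM in the same order. Ccl9 (3.55, 2.68, 4.12 and 7.19 FPKM) and the interferon-inducible Cxcl11 (0.817, 0.470, 1.06 and 2.33 FPKM) had that order of libraries too. For Cxcl3, Ccl8, Ccl9 and Cxcl11 the order in unscaled FPKM was Minimal Myc, MycN, vector and Myc, the order of Cxcl5, Cxcl10 and Cxcl12. Cxcl3 and Cxcl11 passed the filter only through Minimal Myc, so their place among tested genes already required a high value there. Ccl25 and Ccl27a, chemokines of thymus and skin, went another way. Ccl25 was highest in MycN at 14.9 FPKM, and Ccl27a was highest in vector at 12.9 FPKM, a value that is uncertain because Ccl27a has near-identical copies in the mouse genome.

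Receptors were near the floor. Of 18 signalling chemokine receptors, 17 were below 1 FPKM in all 4 libraries, among them Ccr2, Cxcr3, Cxcr6 and Cx3cr1. Cxcr2 was the exception, at 6.93 FPKM with vector, 7.35 with Myc, 8.73 with MycN and 4.60 with Minimal Myc. Cxcr4, the signalling receptor of Cxcl12, was at most 0.385 FPKM. Of 5 atypical receptors, which take up ligands without G protein signalling, 1 was tested. Ackr3, listed under its older symbol Cxcr7 and a scavenger of Cxcl12, was 0.736 FPKM with vector, 5.65 with Myc, 16.8 with MycN and 14.3 with Minimal Myc. All 3 cultures given a Myc protein were thus at least 2-fold above vector for this scavenger receptor, where 11.2%, 7.65% and 13.6% of all genes were, while its ligand Cxcl12 differed little.

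**Figure D4:**
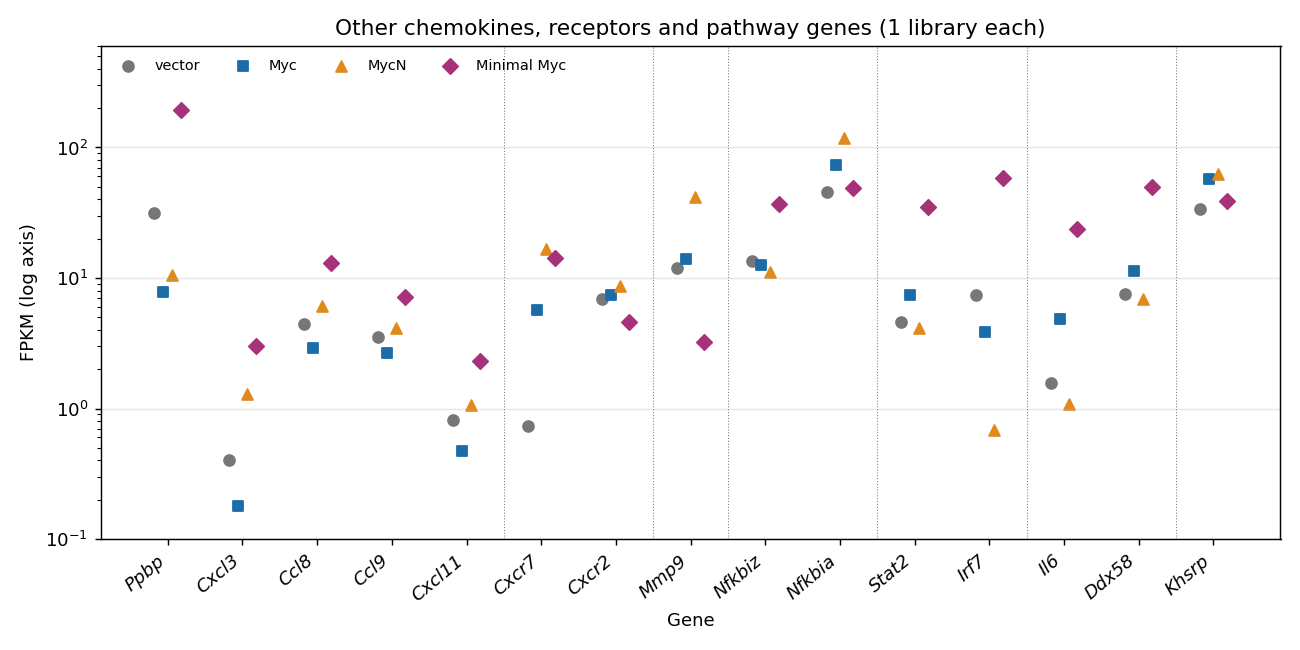
FPKM on a log axis of other chemokines, chemokine receptors, a matrix protease, NF-kB genes, interferon signalling genes, upstream genes and an mRNA decay factor, 1 point per library, groups set apart by dotted lines. Minimal Myc is the highest point for Ppbp (195 FPKM), Stat2 (35.0 FPKM) and Irf7 (58.3 FPKM), and vector is the lowest for Cxcr7 (0.736 FPKM).

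Genes of NF-kB, the transcription factor family that many inflammatory chemokines depend on, differed modestly. Of 15 subunits and feedback genes, 4 were at least 2-fold higher in MycN than in vector, 3 in Minimal Myc and 2 in Myc, and 0 were lower. Of all tested genes 7.65%, 13.6% and 11.2% were higher in these comparisons, and 1.86%, 1.68% and 1.56% were lower. The counts of higher genes in Minimal Myc and Myc thus lay near the background. The largest difference was 1.39 in MycN and 1.27 in Myc (both Bcl3, log2), where the shift of all genes was 0.42 and 0.47. Relative to that shift, no gene of the list was 2-fold above vector in MycN or Myc. The list medians were 0.64 with Myc, 0.49 with MycN and 0.74 with Minimal Myc (log2), close to the shift of all genes for MycN. The subunit genes Rela and Nfkb1 were 29.3 and 18.7 FPKM in vector and 41.4 and 35.6 in Minimal Myc. Nfkbiz, a nuclear cofactor of NF-kB, was 13.6 FPKM with vector, 12.6 with Myc, 11.1 with MycN and 36.9 with Minimal Myc. Nfkbia, the inhibitor that NF-kB itself induces, was 45.7 FPKM with vector, 73.2 with Myc, 117 with MycN and 49.1 with Minimal Myc. The cofactor was thus high in Minimal Myc and the inhibitor in MycN. Bcl3 and Birc3, also NF-kB targets, were lowest in vector, at 3.11 and 4.39 FPKM, and 8.90 to 11.4 and 10.3 to 15.7 FPKM in the others. Of all tested genes, 68.1% were lowest in vector.

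By list median, interferon signalling genes differed from vector more than the NF-kB genes in Minimal Myc, and less in Myc and MycN. Of 13 such genes, 7 were at least 2-fold higher than vector in Minimal Myc and 0 lower, with 1 higher in Myc, and 1 higher and 1 lower in MycN. The background of higher genes was 13.6% in Minimal Myc, 11.2% in Myc and 7.65% in MycN. The single higher genes of Myc and MycN were thus near that share. The background of lower genes was 1.86% in MycN, where Irf7 was the lower gene, and 1.68% in Minimal Myc. The list median was 1.21 in Minimal Myc, 0.40 in Myc and 0.26 in MycN (log2), above the shift of all genes in Minimal Myc alone. Stat2, a transcription factor activated by interferon receptors, was 4.64 FPKM with vector, 7.35 with Myc, 4.14 with MycN and 35.0 with Minimal Myc. Irf7, which amplifies interferon production, was 7.41, 3.83, 0.685 and 58.3 FPKM in the same order. Cxcl10 did not follow these genes in size or order: MycN, the lowest library for Irf7, was the second highest for Cxcl10. Ccl5, likewise induced by interferon in many cells, stood in Minimal Myc at 0.785 of the vector level in unscaled FPKM and at 1.01 in scaled FPKM. Ifnb1, the gene of interferon beta, was 0.314 FPKM with vector, 0.0774 with Myc, 0.0377 with MycN and 1.25 with Minimal Myc. The part of the interferon genes in the chemokine levels of Minimal Myc was not tested.

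Among cytokines and sensors that act upstream of chemokines, 7 of 9 tested genes were at least 2-fold higher than vector in Minimal Myc, 3 in Myc and 2 in MycN, with 1 lower in MycN. The shares of all tested genes that were higher were 13.6%, 11.2% and 7.65%, and 1.86% were lower in MycN. The list medians were 1.75, 0.77 and 0.50 (log2), against 0.47, 0.47 and 0.42 over all genes. One of the 7, Tlr3, which is also the gene at the Minimal Myc median, was tested only through its Minimal Myc level of 5.14 FPKM. Il6, the cytokine gene, was 1.58 FPKM with vector, 4.86 with Myc, 1.08 with MycN and 23.8 with Minimal Myc. Ddx58, the RNA sensor RIG-I, was 7.50, 11.2, 6.87 and 50.0 FPKM in the same order, and Ifih1, the RNA sensor MDA5, was 2.85, 1.57, 0.844 and 16.4. Myd88, the adaptor of Toll-like and interleukin-1 receptors, was 7.52 FPKM with vector, 19.4 with Myc, 13.0 with MycN and 33.9 with Minimal Myc. Genes of the classical inducers were at or near 0 in every library: Tnf was at most 0.168 FPKM, Il1a at most 0.584, and Il1b and Ifng were listed at 0.

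For each chemokine with a 2-fold range, the genes with the closest profile were found over the 4 libraries, by the distance between log2(FPKM + 1) profiles centred on each gene's mean, among 10788 genes. With 4 libraries many profiles lie close by, so closeness is a description of these values. The closest to Ccl2 were Gpr180, Pnp2 and Il1rap, the last an accessory receptor of interleukin-1, at distances of 0.03, 0.07 and 0.10. Near Ccl7 were the collagen cross-linking enzyme gene Lox and Dusp12 (both 0.29). Lox was 80.2 FPKM with vector, 144 with Myc, 61.1 with MycN and 297 with Minimal Myc. Ccl5 had no neighbour closer than 0.51, the distance of Pde8a, and Ctgf, a matricellular growth factor, lay at 0.59. Ctgf was 119 FPKM with vector, 16.8 with Myc, 31.0 with MycN and 68.5 with Minimal Myc. The closest to Cxcl1 were Ncf4, En1 and H2afy2 (0.33 to 0.47), and those to Cxcl5 were Alpl, Wnt10a and Svep1 (0.37 to 0.46). Cxcl10 was closest to Mgat3, Fam69b and Ccdc91 (0.13 to 0.35), and Cxcl16 to Creb3l1, Sp140 and Runx3 (0.18 to 0.23). Of these neighbours, Ncf4, Wnt10a and Runx3 passed the filter only through Minimal Myc, at 4.24, 7.33 and 4.12 FPKM. Their closeness to chemokines that were high there was partly bound to that filter. Cx3cl1 was closest to the complement gene C3, the sulfatase gene Sulf2 and Cd74, the invariant chain of MHC class II (0.27 to 0.48). C3 was 8.33 FPKM with vector, 15.0 with Myc, 76.9 with MycN and 5.91 with Minimal Myc. Cd74 was 3.39, 6.96, 42.9 and 2.06 FPKM in the same order. Among the chemokines themselves, Ccl2 and Ccl7 lay 0.62 apart. Cxcl1 lay 0.75 from Cxcl10 and 0.78 from Cxcl5, and Cx3cl1 was at least 2.62 from every other member.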

How the data were processed

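The members and gene lists were chosen with earlier results of these data known. Poly(A)-selected, strand-specific RNA-seq was done on 4 cultures, per the labels' protocols. TopHat2 2.0.11, Cufflinks 2.2.0 and build mm9 are named in the submitters' processing notes, with no role or order. The authors deposited 2 tables of FPKM, unscaled and scaled by 1 factor per library, with 26608 rows each. Of these, 32 rows hold a NanoString signal, which covers 0 of the 9 chemokines, and were left out. Identical rows of a gene were merged and differing rows summed (189 genes). Tested genes average 1 FPKM or more over the 4 libraries, without 309 small RNA genes. Differences are of log2(FPKM + 1), which understates those of low genes, computed in Python 3.11.15 with pandas 2.3.3 and tested on simulated data. No test was run, since each group is 1 library.

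Genes named are the 9 chemokines, Myc and Mycn, the 3 nearest profiles of each chemokine with a 2-fold range, and up to 4 genes of each of 10 lists and 4 marker lists with the largest difference. Genes named beyond this rule (Rela, Nfkb1, the receptors below 1 FPKM, Ifnb1, Tnf, Il1a, Il1b, Ifng, Ptprc, Emr1, Adam10, Dpp4) were chosen after their values were seen. A few genes that the rule takes are not reported here. Symbols are those of the files, and no gene coordinates of mm9 are given. Alternatives were the scaled table, centring on the median gene, 0.1 as pseudocount, no filter, and the highest row per gene.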

Additional observations from a re-analysis of the deposited data

How the results depend on the processing

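The counts of chemokines at least 2-fold apart were recomputed under 5 alternatives. Counts of higher chemokines in Minimal Myc stayed within 1.5 times under the alternatives that could alter them. They were 5 or 6 against vector, 5 to 7 against Myc and 4 against MycN. Cxcl16 was in each of these counts and was tested only through its Minimal Myc level, so its place was bound to the filter. Of all tested genes, 3.72% to 33.7%, 2.44% to 5.6% and 6.45% to 8.38% were higher in these comparisons, by setting that kept the filter. With scaled FPKM, 4 chemokines in place of 0 were higher in Myc than in vector, where 78.5% of all genes were. In MycN, 0 in place of 1 were lower than in vector, where 1.25% of all genes were. Against Myc, 1 in place of 5 was higher in MycN (0.85% of all genes) and 2 in place of 1 were lower (20.2%). After centring on the median gene, 2 in place of 1 were lower in Myc than in vector (4.38% of all genes). In MycN, 1 in place of 3 was higher than in vector (1.86%) and 2 in place of 1 were lower (4.19%). In Minimal Myc, 1 in place of 0 was lower than in vector (4.68%). With a pseudocount of 0.1, 2 in place of 1 were lower in MycN than in vector (2.69% of all genes). The same held against Myc (3.85%), and the added gene was Cxcl16 in both. Omitting the filter or taking the highest row could change no count, because all 9 chemokines passed the filter and each has 1 row. Of 54 single differences, 13 crossed the 2-fold line in scaled FPKM (7 to below it and 6 to beyond it), 6 after centring and 2 with the smaller pseudocount, and 0 that were 2-fold in either setting changed sign. No paired analysis was possible because each group has 1 library, and for the same reason no replicate could be left out. Fragment numbers per gene are unknown, so values below 1 FPKM, as of Cxcl16, carry an unknown counting error.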

Other observations

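Genes that release or trim chemokines and genes that control their messenger RNA were also read. Adam10 and Adam17, the proteases that shed Cx3cl1 and Cxcl16, were 17.2 and 11.7 FPKM in vector and 23.1 to 28.9 and 17.4 to 22.7 in the other libraries. Their differences from vector were 0.40 to 0.71 and 0.53 to 0.90 (log2), all below 2-fold. The shift of all genes was 0.42 to 0.47. Mmp9, a gelatinase that can trim CXC chemokines, was 11.8 FPKM with vector, 14.1 with Myc, 41.6 with MycN and 3.22 with Minimal Myc. Its order of libraries was that of Cx3cl1. Mmp2, a gelatinase that cleaves Cxcl12, was 56.3, 45.8, 214 and 86.0 FPKM in the same order, highest in MycN. Dpp4, a peptidase that inactivates several chemokines, was at most 0.0651 FPKM.

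Of 7 genes whose proteins bind AU-rich messenger RNA, such as those of many inflammatory chemokines, 0 were at least 2-fold apart in any of the 6 comparisons in unscaled FPKM. Of all tested genes 1.56% to 13.6% were in a single comparison and direction. The share that matches any of the 6 comparisons is that of genes with a 2-fold range over the 4 libraries. It was 29.96% of all tested genes, and whether 0 of 7 lies below it was not tested. Zfp36, the decay factor tristetraprolin, was 9.57 FPKM with vector, 9.66 with Myc, 11.5 with MycN and 16.2 with Minimal Myc. Khsrp, another decay factor, was 33.9, 57.8, 62.4 and 39.1 FPKM. Their part in the chemokine levels was not tested.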
